A study of Mus musculus with 21 samples.

Results

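The 21 mouse rhabdomyosarcoma (RMS) tumors of this series were ranked by a proliferation score, and the 7 tumors with the highest score were compared with the 7 tumors with the lowest score. The tumors were chosen by measured values, the score being the mean log2 RMA value of Plk1, Bub1b, E2f8 and Tyms, 4 genes of dividing cells, and 7 tumors in between belonged to neither side. The high side held 5 PE and 2 NPE tumors, and the low side held 1 PE and 6 NPE tumors. NPE tumors came from Neu1+/−/Ptch1+/−/ETV7 TG+/− mice and PE tumors from Ptch1+/−/ETV7 TG+/− mice, so that all tumors shared the Ptch1 heterozygosity and the ETV7 transgene and the genotypes differed at Neu1, the gene of lysosomal sialidase. The series holds 14 NPE and 7 PE tumors, all dissected as bulk tissue from trunk or limb and flash frozen. The mice were of mixed FVB/NJ, 129sv and C57BL/6 background and of both sexes, and the labels used here give no body site, age or sex for single tumors. The promoter that drives ETV7 is not given in the sources used here, nor whether any tumors shared an animal. Each tumor was measured on 1 Clariom S array, a microarray that reads most protein-coding mouse genes with 1 probe set each, and values are log2 RMA values, background-corrected and normalized log2 intensities. The mean of 3 genes of the male Y chromosome was 2.4 in NPE tumor 3 and 2.5 in PE tumor 5 on the high side. On the low side it was 2.3 to 2.6 in NPE tumors 2, 6 and 10. In the other tumors of both sides it was 6.4 to 7.4.

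RMS is a tumor of cells that resemble immature skeletal muscle. Dividing cells switch on groups of genes in turn: E2F factors drive the genes of DNA replication at the start of S phase, and a later program, controlled through a promoter element called the CHR, drives the genes of mitosis. In normal muscle development, myoblasts leave the cell cycle before they fuse and express the contractile proteins of mature fibers. Because these were bulk samples, fewer cells of a type and less RNA per cell cannot be told apart in any value below.

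Of the 4 ranking genes, Plk1 encodes a mitotic kinase, Bub1b a kinase-like protein of the spindle checkpoint, E2f8 a repressor of the E2F family that is itself an E2F target, and Tyms thymidylate synthase, which makes the thymidine nucleotide for DNA. Their RefSeq promoter windows (build GRCm38.p6, each 300 bases around the annotated start, read along the gene) are shown because these genes define the sides. The windows are chr7:122159185-122159484 on the plus strand for Plk1, chr2:118597961-118598260 on the plus strand for Bub1b, chr7:48881547-48881846 on the minus strand for E2f8 and chr5:30073576-30073875 on the minus strand for Tyms. Capitals mark matches on either strand to the CHR (TTTGAA or TTCGAA), to the CCAAT box (CCAAT), or to an E2F site (TTTCCCGC, TTTGGCGC, TTTCGCGC or TTTGCCGC).
Plk1: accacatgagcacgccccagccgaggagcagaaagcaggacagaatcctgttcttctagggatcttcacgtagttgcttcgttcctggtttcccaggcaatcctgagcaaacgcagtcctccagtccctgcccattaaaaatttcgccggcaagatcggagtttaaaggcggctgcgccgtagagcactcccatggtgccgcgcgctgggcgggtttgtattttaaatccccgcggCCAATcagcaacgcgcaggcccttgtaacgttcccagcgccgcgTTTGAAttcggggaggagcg
Bub1b: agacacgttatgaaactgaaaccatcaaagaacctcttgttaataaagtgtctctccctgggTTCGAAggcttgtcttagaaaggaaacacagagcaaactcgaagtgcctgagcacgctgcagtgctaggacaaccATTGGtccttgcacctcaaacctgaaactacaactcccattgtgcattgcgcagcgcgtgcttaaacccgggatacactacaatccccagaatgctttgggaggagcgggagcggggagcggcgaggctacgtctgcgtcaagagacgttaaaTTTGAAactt
E2f8: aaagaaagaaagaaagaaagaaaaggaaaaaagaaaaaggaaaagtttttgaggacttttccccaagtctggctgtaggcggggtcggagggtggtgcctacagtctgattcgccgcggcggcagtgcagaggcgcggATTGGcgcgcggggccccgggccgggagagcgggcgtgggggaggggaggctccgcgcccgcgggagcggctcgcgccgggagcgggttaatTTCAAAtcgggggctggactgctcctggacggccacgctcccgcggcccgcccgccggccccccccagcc
Tyms: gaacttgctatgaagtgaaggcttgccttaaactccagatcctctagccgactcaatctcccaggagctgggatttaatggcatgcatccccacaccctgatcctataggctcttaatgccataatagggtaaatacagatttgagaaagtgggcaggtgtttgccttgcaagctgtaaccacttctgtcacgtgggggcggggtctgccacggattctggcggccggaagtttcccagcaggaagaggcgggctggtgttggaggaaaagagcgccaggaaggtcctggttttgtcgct

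A CHR and a CCAAT box stood in the windows of Plk1, Bub1b and E2f8, with the CHR at bases 281 to 286, 291 to 296 and 231 to 236 of the window, and Bub1b held a further CHR at bases 63 to 68. None of the searched letters stood in the Tyms window, and none of the windows held an E2F site as spelled here. Among all 32851 RefSeq promoter windows, 19.2% held a CHR, 37.4% a CCAAT box and 2.26% an E2F site. These matches describe the sequences and are not sites of measured binding.

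The score ran from 7.09 in PE tumor 6 to 4.06 in NPE tumor 1. On the high side it was 6.62 ± 0.31 (mean ± SD, n = 7, lowest 6.30, median 6.51, highest 7.09), and on the low side 5.13 ± 0.62 (n = 7, lowest 4.06, median 5.20, highest 5.83). At the edges, PE tumor 3 at 6.30 was just inside the high side and NPE tumor 14 at 6.21 just outside it, while PE tumor 1 at 5.83 was just inside the low side and PE tumor 2 at 6.0 just outside it. The cuts therefore ran through a dense part of the ranking, in which the 7 middle tumors spanned 6.0 to 6.21.

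Plk1 was 7.21 ± 0.24 on the high side and 5.65 ± 0.68 on the low side, and Bub1b was 5.68 ± 0.58 and 4.02 ± 0.74. E2f8 was 6.94 ± 0.68 and 5.25 ± 1.08, and Tyms was 6.64 ± 0.45 and 5.58 ± 0.42. Plk1 and Tyms did not overlap between the sides, whereas Bub1b did through NPE tumor 11 at 4.86 and NPE tumor 4 at 5.07, and E2f8 did through NPE tumor 3, whose 5.58 was below the lowest other high-side value of 6.79. These values chose the sides and carry no test.

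**Figure D1:**
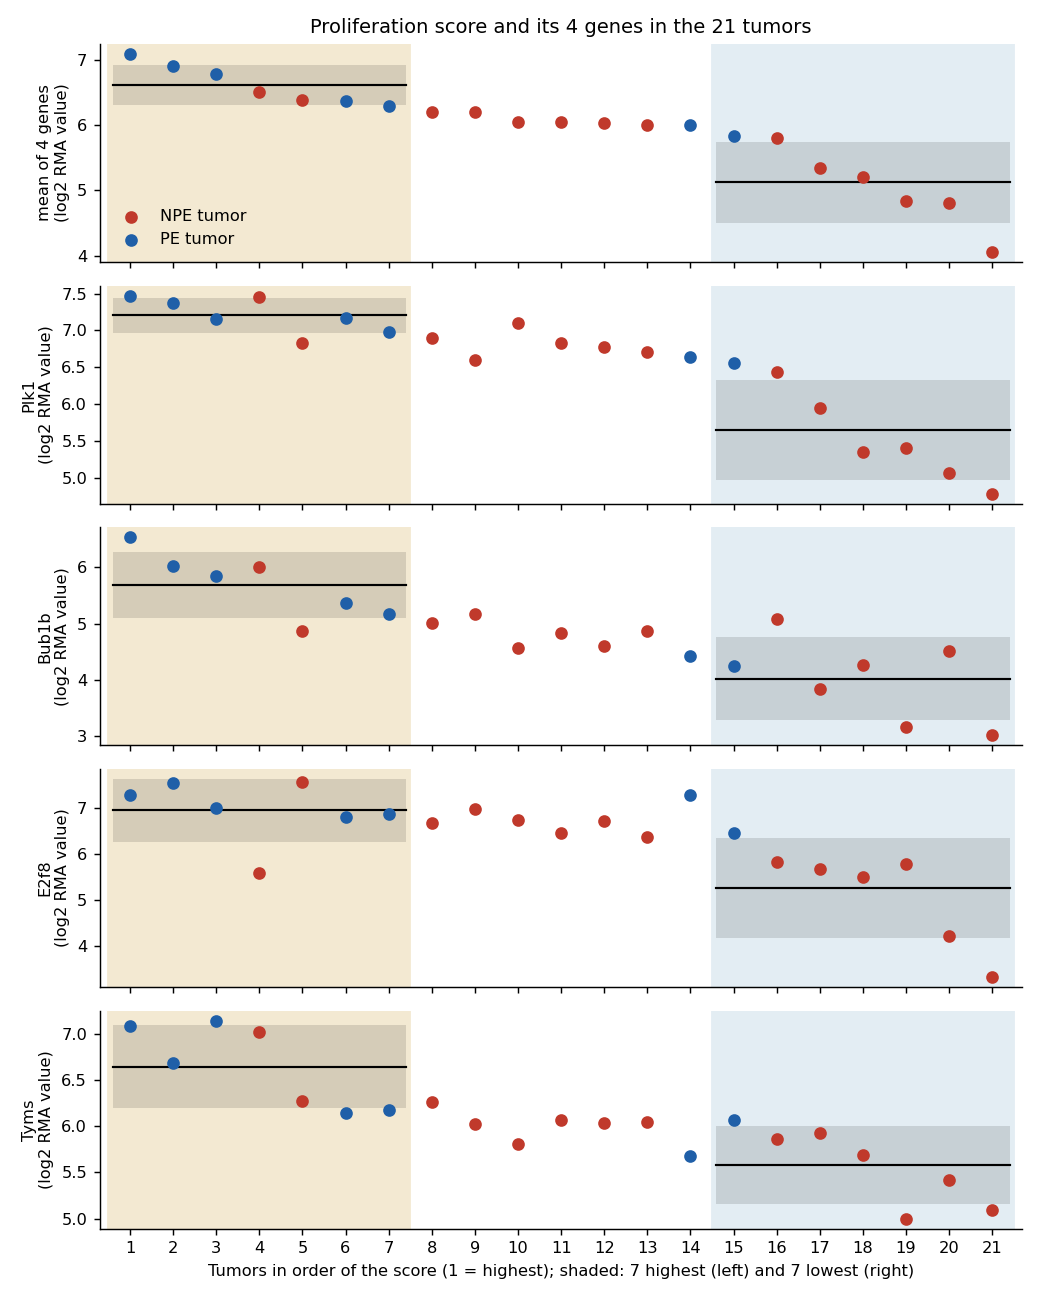
The score and the log2 RMA value of each of its 4 genes (y axes) in the 21 tumors in order of the score (x axis), with NPE tumors in red and PE tumors in blue. Black lines and gray bands give the mean ± SD of the 7 highest (left, 6.62 ± 0.31 for the score) and the 7 lowest tumors (right, 5.13 ± 0.62); the 5 PE tumors at the left contrast with 1 PE tumor at the right.

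The genotypes were unevenly spread over the ranking. PE tumors scored 6.47 ± 0.47 (n = 7, from 5.83 to 7.09) and NPE tumors 5.68 ± 0.72 (n = 14, from 4.06 to 6.51), a difference of NPE minus PE of -0.79. The 3 highest tumors were PE and the 6 lowest were NPE, while NPE tumors 3 and 11 ranked 4 and 5. With the mean of a list of 22 mitotic kinases and cyclins in place of the score, the NPE minus PE difference was -0.43, and with a list of 28 origin licensing genes it was -0.23. These values rest on the genes that chose the sides or on others of the cell cycle and carry no test.

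The numbers in the sample titles also differed between the sides. Of the high-side tumors, 1 carried a number from 1 to 10, 3 from 18 to 23 and 3 from 28 to 35, against 4, 2 and 1 of the low-side tumors. What these numbers stand for is not given, and all 8 tumors numbered 1 to 10 were NPE. Among numbers 18 to 23 the score was 5.35 in 1 NPE tumor and 6.28 on average in 5 PE tumors, and among numbers 28 to 35 it was 6.09 in 5 NPE and 6.94 in 2 PE tumors (NPE minus PE -0.88 with the range as a block). Median array values were alike, from 5.32 to 5.39 on the high side and from 5.34 to 5.41 on the low side. RMA normalizes the arrays to each other, so these medians cannot show whether the sides differ technically. Some tumors resembled each other closely across genes, with r = 0.68 between the high-side PE tumors 6 and 7, r = 0.71 between the high-side NPE tumor 11 and the middle NPE tumor 12, and r = 0.50 between the low-side NPE tumors 1 and 2, each after the gene means were removed. A further fit averaged 3 pairs: PE tumors 6 and 7, NPE tumors 11 and 12, and the middle NPE tumors 7 and 8 (r = 0.47). NPE tumors 1 and 2 were not averaged. After the samples were ranked again, 45 genes were called higher and 27 lower by the rule given below.

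The rest of the cell cycle moved with the 4 genes. Across 12 lists of cell cycle genes with 417 measured members, 401 were higher on the high side and the median difference of high minus low was 0.57 on the log2 scale. The largest median belonged to the replication-dependent histones, the DNA-packaging proteins made in S phase, at 1.02 over 54 genes that were all higher. Mitotic kinases and cyclins followed at 0.94 (22 genes), spindle and cytokinesis genes at 0.86 (67 genes), G1 to S regulators at 0.64 (30 genes) and origin licensing genes at 0.56 (28 genes). Cell cycle inhibitors had the smallest median, 0.21 over 16 genes, and the p53 target Ccng1 was lower on the high side (9.09 ± 0.31 against 9.84 ± 0.48).

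Cdk1, the kinase that starts mitosis, showed the largest difference of the 417 genes, at 6.79 ± 0.46 on the high side and 4.40 ± 1.11 on the low side. Pbk was 6.86 ± 0.81 against 4.66 ± 0.90, the checkpoint kinase Bub1 5.68 ± 0.51 against 3.62 ± 0.65, and Mki67, whose protein Ki-67 is the usual stain for dividing cells, 8.37 ± 0.39 against 6.71 ± 0.99. In S phase genes the DNA primase subunit Prim1 was 6.13 ± 0.62 against 4.46 ± 0.79, and Rrm2, a subunit of ribonucleotide reductase, 7.54 ± 0.42 against 6.29 ± 1.08. The sides thus differed in genes of both S phase and mitosis. Because these genes travel with the ranking genes on the same arrays, they are given as a description with no test.

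Outside the cell cycle lists, 19088 genes were tested with limma over the 14 tumors. A gene was called where its Benjamini-Hochberg adjusted p over all 22206 tested probe sets was under 0.05, and differences are the mean log2 value of the high side minus that of the low side. By this rule 67 genes were higher on the high side (0.351% of those tested) and 45 were lower (0.236%), and at an unadjusted p under 0.05 there were 1179 higher (6.18%) and 1304 lower (6.83%). The genes called higher included the imprinted gene Mest, glucose uptake and hypoxia genes, Myc and nuclear pore genes, and those called lower included fast muscle fiber and mast cell protease genes. The sides were cut from the same arrays, so that these p-values describe an association with the ranking among these tumors and not the effect of a condition. Of the 19088 genes, 53 were higher in every high-side than in every low-side tumor and 18 were lower.

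**Figure D2:**
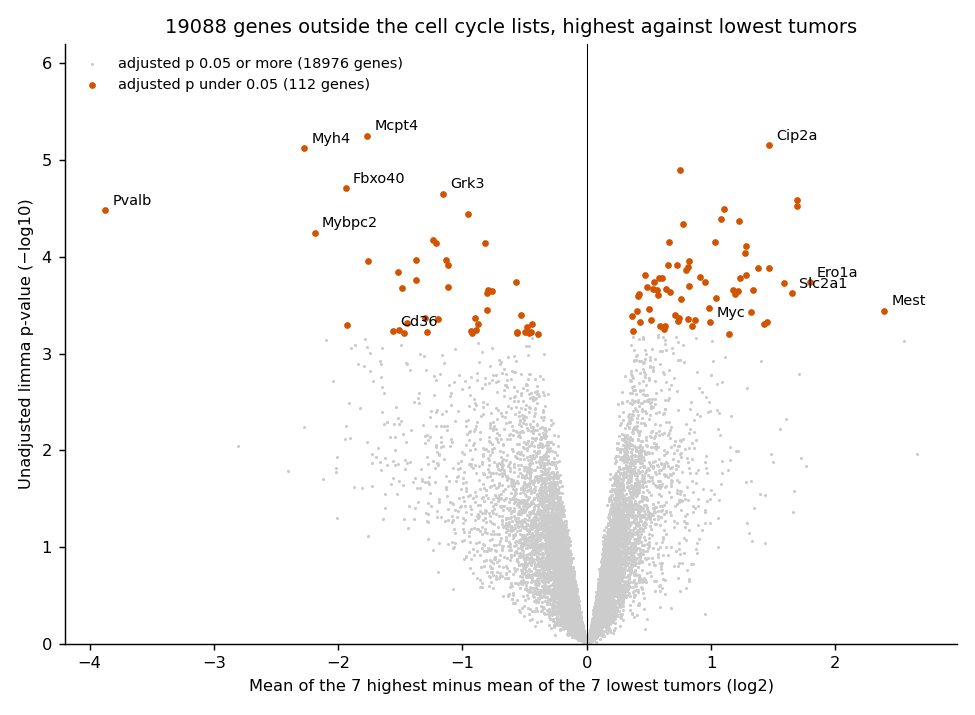
Each point is 1 of 19088 genes outside the cell cycle lists, by its difference between the 7 highest and the 7 lowest tumors (x axis, log2) and its unadjusted limma p-value (y axis, −log10). The 112 called genes are in orange; Mest at 2.39 and Pvalb at -3.87 have the largest differences of the called genes in each direction.

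No gene was called between the sides once genotype, the number range, or the muscle fiber and adipocyte means were in the fit, while the directions were kept. With genotype as a covariate no gene was called (limma, 753 higher and 599 lower at an unadjusted p under 0.05, 3.94% and 3.14%), although all 112 called genes kept their direction. With the score as a continuous measure over all 21 tumors, 888 genes outside the lists rose with it and 946 fell (4.65% and 4.96%), and with genotype added to that fit 627 rose and 625 fell (3.28% and 3.27%), including 98 of the 112. Over the 14 NPE tumors alone, 365 rose and 388 fell with the score (1.91% and 2.03%), and over the 7 PE tumors 7 rose and 5 fell (0.0367% and 0.0262%). Without NPE tumors 1 and 2, whose adipocyte means were the highest, limma called no gene between the sides (760 higher and 791 lower at an unadjusted p under 0.05, 3.98% and 4.14%). With the muscle fiber and adipocyte means as covariates it called no gene either (473 and 656, 2.48% and 3.44%), and none with the number range (798 and 801). Mcpt4, a mast cell protease, differed by -1.76 with no covariate (adjusted p = 0.0098), by -1.65 with genotype (adjusted p = 0.161), by -1.77 with the muscle fiber and adipocyte means (adjusted p = 0.275) and by -1.75 with the number range (adjusted p = 0.0747), so that its call was lost at a similar size. Single tumors moved the counts of 67 and 45 by over 1.5 times. They fell to 12 and 10 without NPE tumor 2, 31 and 21 without NPE tumor 1, 28 and 22 without NPE tumor 6, and 34 and 21 without NPE tumor 9. On the high side they fell to 13 and 12 without PE tumor 6, 27 and 15 without PE tumor 7, and 28 and 26 without PE tumor 4, and 29 were lower without PE tumor 3. Without PE tumor 1 they rose to 128 and 123. No gene had a called difference in slope between PE and NPE tumors (limma, 620 higher and 636 lower in PE at an unadjusted p under 0.05, 3.25% and 3.33%).

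Several genes of glucose use and the hypoxia response were higher on the high side. HIF-1, the factor stabilized when oxygen is low, induces glucose transporters, glycolytic enzymes and angiogenic factors. Of the 25 measured genes of the glycolysis and HIF-1 target list, 5 rose, 0 fell and 20 did not pass the test, where the background is 0.351% called higher. The list's median difference was 0.60 against -0.0012 over all genes outside the cell cycle lists, 21 of the 25 were above 0, and the median was 0.51 with genotype as a covariate, 0.65 within NPE tumors (5 highest against 5 lowest) and 0.42 with the muscle fiber and adipocyte means as covariates. The median slope on the score was 0.33 for each unit over the 14 NPE tumors, with 19 of 25 slopes above 0, and -0.12 over the 7 PE tumors, with 7 above and 18 below 0. The difference between these medians was not tested.

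Slc2a1, which encodes the glucose transporter GLUT1, ran from 9.55 (median 9.78) to 10.23 on the high side and from 6.93 (median 8.21) to 9.74 on the low side. The high-side tumors were tightly grouped and the low-side tumors spread over almost 3 log2 units, and 4 high-side tumors lay above every low-side tumor. The difference was 1.65 ± 0.35 (SE, adjusted p = 0.0268). Ero1a, an oxidase of the endoplasmic reticulum and HIF-1 target, ran from 9.02 (median 9.45) to 9.98 and from 6.44 (median 7.53) to 9.43, a difference of 1.79 ± 0.37 (adjusted p = 0.0242). Its low side overlapped the high side through 1 tumor.

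Ndrg1, a stress-induced gene, ran from 8.48 (median 8.95) to 9.73 on the high side and from 7.01 (median 7.69) to 8.67 on the low side (difference 1.27 ± 0.24, adjusted p = 0.0185). Pfkl, the liver-type phosphofructokinase that commits sugar to glycolysis, differed by 1.34 ± 0.28 (adjusted p = 0.026), and the HIF-1 target Ankrd37, chosen after its values were seen, by 1.19 ± 0.25 (adjusted p = 0.027). Further called genes that hypoxia is known to induce stood outside that list: Ddit4, an inhibitor of mTORC1, differed by 1.47 ± 0.29 (adjusted p = 0.0216) and Hilpda, a lipid droplet protein, by 1.1 ± 0.19 (adjusted p = 0.0148). Not all glycolytic enzymes were higher: Aldoa, the muscle aldolase, also chosen after its values were seen, had medians of 10.99 on the high side and 11.48 on the low side (difference -0.47 ± 0.18, adjusted p = 0.26).

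In all 5 called genes of the list the highest low-side value belonged to PE tumor 1, the only PE tumor there. Its Slc2a1 value was 9.74 against at most 8.77 in the 6 low-side NPE tumors, its Ero1a value 9.43 against at most 8.35 and its Ndrg1 value 8.67 against at most 7.88. The same tumor held the highest low-side value in 34 of the 67 genes called higher and the lowest in 21 of the 45 called lower. Among all 19088 genes, which were not selected for a difference between the sides, it did so in 2055 and 2147. PE tumor 1 also had the highest score of the low side (5.83), so its genotype and its place in the ranking cannot be told apart here. Over the 14 NPE tumors, Slc2a1 rose by 1.22 for each log2 unit of the score (adjusted p = 0.00264), and over the 7 PE tumors its slope was 0.12 (adjusted p = 0.862). The difference of these slopes, PE minus NPE, was -1.11 ± 0.45 and was not past the threshold (adjusted p = 0.683).

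Growth factors of blood vessels were among the called genes too. Apln, the ligand of the apelin receptor of endothelial cells, differed by 1.37 ± 0.27 (adjusted p = 0.0216), from 6.42 on the high side to 5.11 on the low side in median. Pgf, placental growth factor, differed by 1.28 ± 0.26 (adjusted p = 0.0229). Of the 18 endothelial genes none was called, and 17 had a difference below 0, with a median of -0.24 that was -0.13 with genotype as a covariate, -0.43 without NPE tumor 3 and -0.14 without NPE tumor 11.

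Mest, an imprinted gene of embryonic mesoderm, showed the largest difference among the genes called higher. On the high side it ran from 9.89 (median 10.66) to 11.44, and on the low side from 6.59 (median 7.55) to 10.48, a difference of 2.39 ± 0.53 (adjusted p = 0.0363). Low-side tumors fell into a low group, NPE tumors 1, 2, 6 and 9 at 7.25, 6.59, 7.44 and 7.55, and the other 3 tumors at 9.33 to 10.48. Mest rose with the score in the fit over 21 tumors with genotype, by 1.66 ± 0.18 for each unit of the score (adjusted p = 1.93e-06), by 1.68 within NPE tumors (adjusted p = 0.000368) and by 1.55 within PE tumors (adjusted p = 0.0396). It was the 1 called gene of 21 in the list of mesenchymal and oncofetal regulators (background 0.351%), whose median was 0.16.

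Myc, the growth-promoting transcription factor, ran from 7.88 (median 8.65) to 8.81 on the high side and from 6.68 (median 7.39) to 8.14 on the low side. The difference was 0.99 ± 0.22 (adjusted p = 0.0427), with 4 high-side tumors above every low-side tumor. Mycn, its neural and embryonic relative, had low values on both sides, from 2.93 to 3.92 and from 2.69 to 3.74 (difference 0.0016 ± 0.17, adjusted p = 0.997). Of 32 genes of the Myc and ribosome biogenesis list 1 rose, Myc itself (background 0.351%), and 0 fell. At an unadjusted p under 0.05, 20 were higher and 0 lower (background 6.18%), and the median was 0.32.

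Genes of protein synthesis had small differences in 1 direction. Of 21 cytosolic ribosomal protein genes none passed the test across all genes, but all 21 had a difference above 0, 20 of them at an unadjusted p under 0.05 (background 6.18%), with a median of 0.34. The mean of the list ran from 10.24 (median 10.34) to 10.45 on the high side and from 9.68 (median 10.03) to 10.18 on the low side, with no overlap. Rps18 differed by 0.42 (adjusted p = 0.0529) and Rpl3 by 0.42 (adjusted p = 0.0708). Ribosomal protein genes have many near-identical copies in the genome, so that single probe sets are uncertain. The list's median was 0.27 with genotype as a covariate and 0.18 with the muscle fiber and adipocyte means as covariates.

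Nuclear pore and transport genes gave 3 calls of 25, all higher (background 0.351%), with a median of 0.34. Nup155, a scaffold protein of the pore, was 7.22 ± 0.25 on the high side and 6.59 ± 0.25 on the low side (adjusted p = 0.026). Nup43 was 6.2 ± 0.27 against 5.63 ± 0.14 (adjusted p = 0.0236) and Nup37 7.48 ± 0.28 against 6.66 ± 0.35 (adjusted p = 0.0205). Nup43 and Nup37 belong to the pore subcomplex that also sits at kinetochores in mitosis. Of 26 splicing genes 0 were called, yet all 26 had a difference above 0 with a median of 0.27. With the muscle fiber and adipocyte means as covariates the splicing median was 0.07 and 8 of the 26 were below 0.

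In metabolism of 1-carbon units, Mthfd1l, a mitochondrial formate-producing enzyme, rose by 1.22 ± 0.25 (adjusted p = 0.026). It was the only call among 20 genes for serine, 1-carbon and purine synthesis (background 0.351%). Aldh1l2 and Psat1 of the same list differed by 1.41 (adjusted p = 0.0708) and 0.83 (adjusted p = 0.125). Among Notch and Wnt genes, Hey1, a Notch target that represses transcription, was the only call of 27 (background 0.351%). It ran from 8.12 (median 8.44) to 9.00 on the high side and from 7.01 (median 7.94) to 8.15 on the low side (difference 0.82 ± 0.18, adjusted p = 0.0409). Of 23 chaperone and unfolded protein response genes none was called, and Hsp90b1, a chaperone of the endoplasmic reticulum, differed by 0.69 (adjusted p = 0.0647) and Derl3 by 0.87 (adjusted p = 0.0514).

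**Figure D3:**
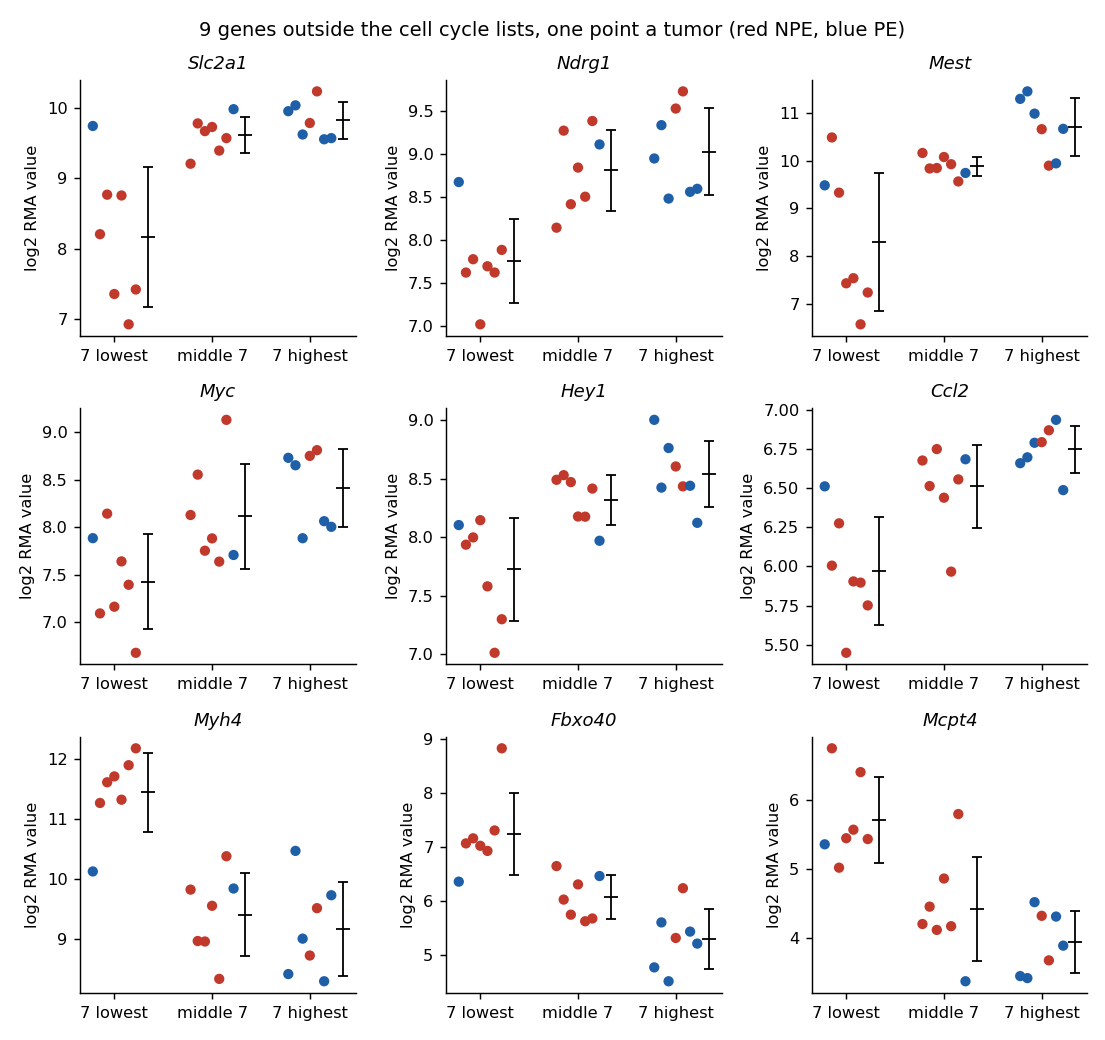
The log2 RMA value (y axes) of 9 genes outside the cell cycle lists in the 7 lowest, the middle 7 and the 7 highest tumors, 1 point a tumor, NPE in red and PE in blue, with the mean ± SD of each group beside the points. Slc2a1 and Ndrg1 are low in the 6 NPE tumors of the low side but not in its PE tumor (9.74 for Slc2a1), while Fbxo40 and Mcpt4 do not overlap between the 7 lowest and the 7 highest tumors.

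A small number of secreted inflammatory genes were among the calls. Ccl2, a chemokine that attracts monocytes, ran from 6.49 (median 6.79) to 6.93 on the high side and from 5.45 (median 5.90) to 6.51 on the low side (difference 0.78 ± 0.14, adjusted p = 0.0149). It was the 1 call among 25 cytokines and chemokines (background 0.351%), whose median was 0.04. Ccl3, which stood outside that list, differed by 1.43 ± 0.33 (adjusted p = 0.0438), and Saa3, an acute-phase serum amyloid, by 1.69 ± 0.29 (adjusted p = 0.0137). Of 17 macrophage genes 0 were called and the median was 0.11, but it was 0.015 with genotype as a covariate and ran from -0.02 without NPE tumor 3 to 0.34 without NPE tumor 11, so that its sign was not kept. Ulbp1, a ligand of the NKG2D receptor of natural killer cells, differed by 1.32 ± 0.29 (adjusted p = 0.0371).

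Neutrophil genes were high in single tumors. None of 10 was called, and the median was 0.41 and 0.24 without NPE tumor 3. With genotype as a covariate the median was 0.82, and 9 of the 10 were higher at an unadjusted p under 0.05 against 3 without it (background 3.94% and 6.18%). That fit held 2 high-side NPE tumors, numbers 3 and 11, and 1 low-side PE tumor, and was not repeated without NPE tumor 3. With no covariate and without NPE tumors 1, 2 and 3 the median was 0.21, and 0 were higher at an unadjusted p under 0.05. S100a8, a neutrophil alarmin, was 8.65 in NPE tumor 3, 6.94 in PE tumor 7 and 6.78 in NPE tumor 11, but 3.31 to 5.45 in the other 4 high-side tumors, and on the low side it ran from 2.78 to 6.44 (difference 1.66, adjusted p = 0.34). The mean of the list was 6.95 in NPE tumor 3 and 4.03 to 5.21 in the other high-side tumors.

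Further genes called higher were Nt5dc2 (difference 1.69 ± 0.29, adjusted p = 0.0148) and Rgs16, a regulator of G protein signaling (1.59 ± 0.33, adjusted p = 0.0242). Tmem97, the sigma-2 receptor, differed by 0.67 ± 0.12 (adjusted p = 0.0165) and Slfn9 by 0.75 ± 0.12 (adjusted p = 0.0119), both with every high-side tumor above every low-side tumor. Some of the 67 genes are known cell cycle genes that the lists had missed. Among them were Cip2a, an inhibitor of the phosphatase PP2A (1.47 ± 0.22, adjusted p = 0.0098), Pclaf, a partner of the replication clamp (1.45 ± 0.33, adjusted p = 0.0427), the histone gene H2ac24 (1.28 ± 0.24, adjusted p = 0.0168) and Prr11 (1.08 ± 0.19, adjusted p = 0.0148). Trim59 and Syce2, the latter a protein of meiotic chromosomes, differed by 1.03 and 1.23 (adjusted p = 0.0165 and 0.0148). With 12 such genes taken out, a choice made after the calls were seen, 55 genes remained higher.

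Genes of mature skeletal muscle had lower values on the high side. Of 36 fiber genes 3 fell, 0 rose and 33 did not pass the test (background 0.236%), and all 36 had a difference below 0, with a median of -1.11. The median was -1.17 with genotype as a covariate and -0.99 within NPE tumors. The mean of the list ran from 7.35 (median 8.89) to 9.84 on the high side and from 9.42 (median 10.00) to 10.77 on the low side, so that both sides held fiber transcripts well above the array median and 4 high-side tumors lay below every low-side tumor.

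The 3 called fiber genes belong to fast-twitch fibers. Pvalb, which encodes the calcium-binding protein parvalbumin, had the largest difference in either direction among the called genes. It ran from 4.32 (median 5.84) to 8.33 on the high side and from 7.06 (median 10.33) to 11.25 on the low side (difference -3.87 ± 0.67, adjusted p = 0.0148). Myh4, the myosin heavy chain of the fastest fibers, ran from 8.31 (median 9.01) to 10.47 and from 10.13 (median 11.62) to 12.18 (difference -2.28 ± 0.35, adjusted p = 0.0098). In both genes 6 of 7 high-side tumors lay below every low-side tumor, and the lowest low-side value belonged to PE tumor 1. Mybpc2, the fast-type myosin-binding protein C, was 5.53 ± 0.70 against 7.72 ± 0.96 (adjusted p = 0.0158).

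More genes of muscle tissue stood outside the list and were called lower. Fbxo40, a muscle-specific ubiquitin ligase subunit, ran from 4.52 (median 5.32) to 6.24 on the high side and from 6.36 (median 7.07) to 8.83 on the low side, with no overlap (difference -1.94 ± 0.32, adjusted p = 0.0137). Asb11 differed by -1.24 ± 0.23 (adjusted p = 0.0165) and Ostn, which encodes the secreted muscle peptide musclin, by -1.93 ± 0.44 (adjusted p = 0.0443). Pkia, an inhibitor of protein kinase A, differed by -1.52 ± 0.30 (adjusted p = 0.022). Fbxo40 also fell with the score within NPE tumors, by 1.12 for each unit (adjusted p = 0.000814), and its slope within PE tumors was -1.23 (adjusted p = 0.172). It was called with any 1 of the 14 tumors left out, whereas Mest was called in 5 and Slc2a1 in 7 of these fits.

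Without covariates, regulators of early muscle did not move as a group. Of 27 myogenic regulators and embryonic muscle genes 0 were called, 13 were above 0 and the median was -0.01, or -0.34 with genotype as a covariate. With the muscle fiber and adipocyte means as covariates the median was 0.46, with 26 of 27 above 0 and 0 calls. NPE tumor 3 stood apart on the high side, with a list mean of 6.31 against 8.59 to 9.14 in the other 6 tumors, and also had the lowest fiber mean at 7.35. Without NPE tumor 3 the myogenic median was 0.43 and the fiber median was -0.79. Sox8, Fgfr4 and Pax7, genes of muscle progenitors, differed by 1.15, 1.32 and 0.76 (adjusted p = 0.187, 0.254 and 0.275), with overlapping sides.

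Fat cell genes had lower values on the high side, most of all against NPE tumors 1 and 2. Of 22 adipocyte genes 1 fell, 0 rose and 21 did not pass the test (background 0.236%), while 19 were lower at an unadjusted p under 0.05 (background 6.83%) and the median was -1.41. Cd36, a fatty acid transporter of fat, muscle and vessel cells, was the call (difference -1.56 ± 0.36, adjusted p = 0.0482). Adipoq, the fat cell hormone adiponectin, ran from 2.97 (median 5.13) to 7.74 on the high side and from 5.82 (median 7.91) to 10.96 on the low side (adjusted p = 0.187). The mean of the list was 9.56 in NPE tumor 1 and 9.32 in NPE tumor 2, against 6.29 to 7.76 in the other low-side and 5.56 to 6.98 in the high-side tumors. Without NPE tumors 1 and 2 the median was -0.60. With genotype as a covariate it was -0.998 and 2 genes were lower at an unadjusted p under 0.05 (background 3.14%), and with the number range 3 were. Beyond the fits with these means as covariates, the part of fat and fiber content in the other differences was not tested.

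Genes of oxidative metabolism had small differences in the same direction as fat and fiber. Of 16 fatty acid oxidation genes 15 were below 0 with a median of -0.32, and of 33 respiratory chain genes 29 were below 0 with a median of -0.23, with 0 calls in either list. Hadhb, an enzyme of mitochondrial fatty acid oxidation, differed by -0.69 (adjusted p = 0.0712). With the muscle fiber and adipocyte means as covariates the medians were 0.08 and 0.12.

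**Figure D4:**
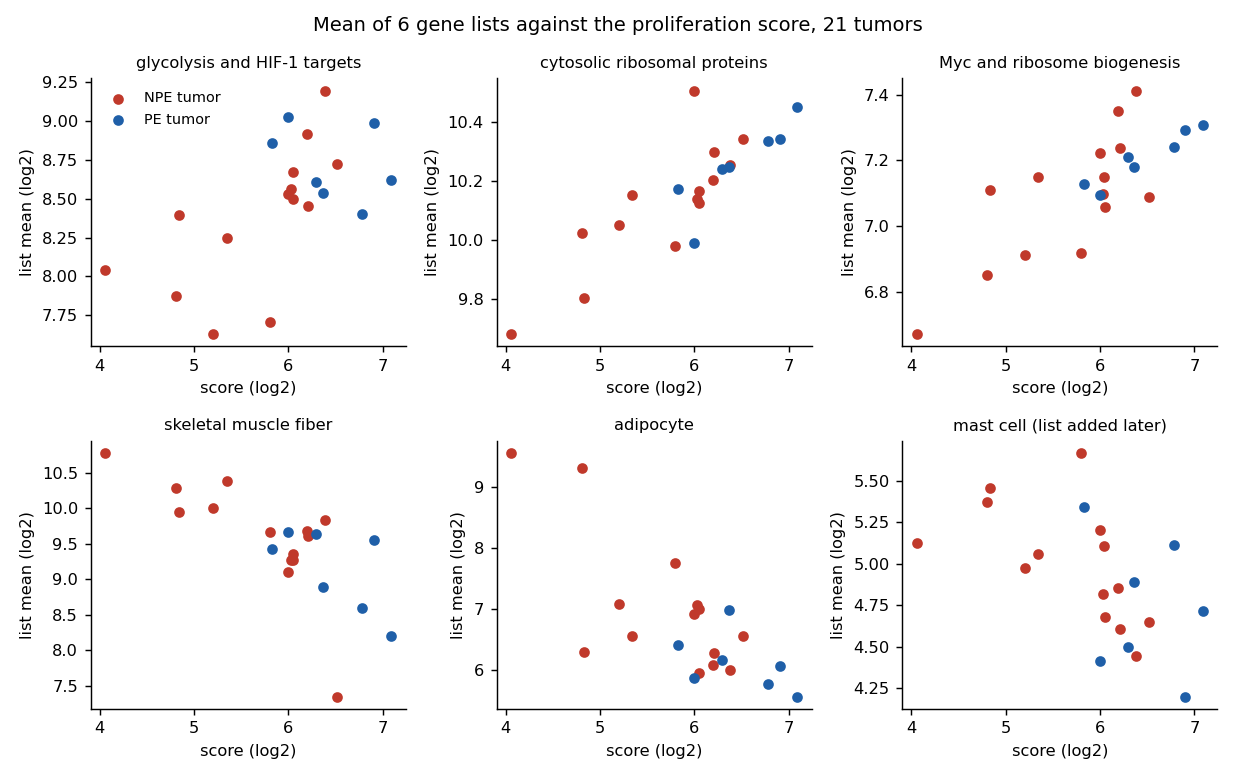
The mean log2 RMA value of 6 gene lists (y axes) against the proliferation score (x axes), 1 point for each of the 21 tumors, NPE in red and PE in blue. The adipocyte mean is highest in the NPE tumors 1 and 2 (9.56 and 9.32), the fiber mean is lowest in NPE tumor 3 (7.35), and the ribosomal protein mean lies between 9.68 and 10.18 in the 7 lowest tumors.

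Mast cell proteases were lower on the high side. Mcpt4, a chymase of connective tissue mast cells, ran from 3.42 (median 3.89) to 4.52 on the high side and from 5.02 (median 5.44) to 6.74 on the low side, with no overlap (difference -1.76 ± 0.26, adjusted p = 0.0098). Cpa3, the mast cell carboxypeptidase, ran from 3.67 (median 4.98) to 5.55 and from 5.59 (median 6.29) to 7.57, again with no overlap (-1.76 ± 0.34, adjusted p = 0.0205). The tryptase Tpsb2, chosen after its values were seen, differed by -1.13 ± 0.22 (adjusted p = 0.0205). A mast cell list was written after these calls were seen and holds the same 3 genes, so its calls add no further result. Its median was -0.53, with 12 of 13 genes below 0. That median was -0.59 with genotype as a covariate and -0.54 with the fiber and adipocyte means as covariates. Differences in the list ran from -1.76 for Mcpt4 to 0.21 for Gata2. Kit, Fcer1a and Hdc were at -0.11, -0.14 and -0.06, and Ms4a2 was at -0.53. Over all 21 tumors with genotype in the fit, the slopes of Mcpt4 and Cpa3 on the score were not past the threshold (adjusted p = 0.055 and 0.251), and the middle tumors overlapped both sides.

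Genes of lymphocytes and antigen presentation leaned lower on the high side without calls in the lists. Of 16 T and B lymphocyte genes 0 were called, 11 were below 0 and 5 above. Their median was -0.25, or -0.14 with genotype as a covariate or without NPE tumor 2, and -0.16 without NPE tumor 11. With the muscle fiber and adipocyte means as covariates it was -0.05. Cd3g and Cd3e, CD3 signaling subunits that associate with the T cell receptor, differed by -1.45 and -1.20 (adjusted p = 0.0716 and 0.126) and Cd3d by -0.56 (adjusted p = 0.114), whereas Gzmb, the granzyme of killer cells, differed by 0.45 (adjusted p = 0.101). Cxcr6, a chemokine receptor of T and natural killer T cells, stood outside the list and was called, at 2.94 to 3.41 on the high side and 3.32 to 6.09 on the low side (difference -1.49 ± 0.31, adjusted p = 0.026). Its high-side values were near the array background, whose median was 2.66 to 2.93 in those tumors. All 8 MHC class II and all 11 MHC class I genes were below 0, with medians of -0.36 and -0.36 and 0 calls. With the muscle fiber and adipocyte means as covariates the class II median was -0.34. In that fit the class I median was -0.04, with 4 of the 11 genes above 0. H2-Eb1 differed by -1.94 (adjusted p = 0.151), with means of 7.56 in the high-side and 8.24 in the low-side NPE tumors against 5.18 in the high-side PE tumors and 5.14 in the low-side PE tumor. MHC class I genes resemble each other closely, so that single probe sets of that list are uncertain. The mice were of mixed strain background, and its part in the MHC values was not tested.

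Other genes called lower on the high side were matrix and signaling genes. Rspo3, a secreted enhancer of Wnt signaling, differed by -1.47 ± 0.34 (adjusted p = 0.0487), Thbs4, a thrombospondin of muscle and tendon matrix, by -1.45 ± 0.33 (adjusted p = 0.0431) and Ecm2 by -1.51 ± 0.35 (adjusted p = 0.0476). The high-side Rspo3 values, from 2.32 to 4.28, reached down to the array background. Slc6a11, a GABA transporter, and Cpeb1, which controls polyadenylation of mRNAs, differed by -1.38 and -1.38 (adjusted p = 0.0205 and 0.0237). Slc9a2, a sodium-proton exchanger, and Grk3, a kinase of G protein-coupled receptors, differed by -1.21 and -1.15 (adjusted p = 0.0165 and 0.0137). Wwp1, a ubiquitin ligase, and Mageh1 differed by -0.96 and -0.82 (adjusted p = 0.0148 and 0.0165). Of the 28 collagen and matrix genes and 14 fibroblast genes none was called, with medians of 0.06 and -0.19. Without NPE tumor 3 the fibroblast median was -0.47. The sign of the collagen median was not kept: it was -0.04 with genotype and 0.37 within NPE tumors, with 24 of 28 above 0. With the muscle fiber and adipocyte means as covariates it was -0.40, with 27 of 28 below 0.

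Neu1, heterozygous in NPE mice, and Ptch1, heterozygous in all mice of the series, were not called. Neu1 ran from 6.24 (median 6.46) to 6.66 on the high side and from 6.04 (median 6.37) to 6.84 on the low side (difference 0.11 ± 0.11, adjusted p = 0.729). Ptch1, the hedgehog receptor, differed by -0.22 ± 0.25 (adjusted p = 0.781), and Gli1, a transcription factor and target of the pathway, by -0.21 ± 0.29 (adjusted p = 0.819). Of 19 hedgehog pathway genes 0 were called and the median was -0.05, and Smo, which Ptch1 holds inactive, differed by 0.37 ± 0.11 (adjusted p = 0.127).

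**Figure D5:**
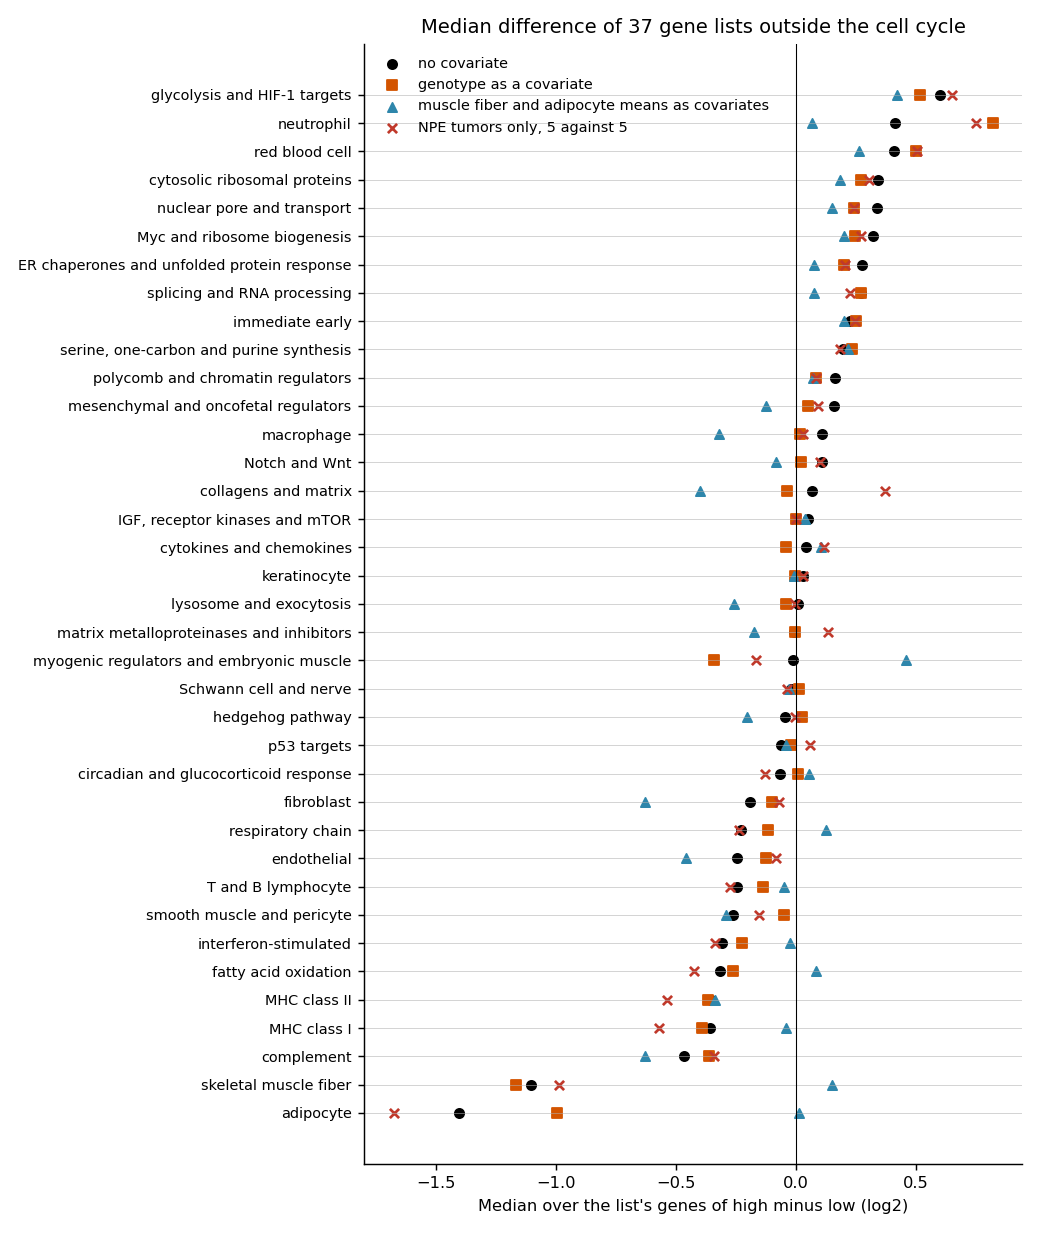
The median over each list's genes of high minus low (x axis, log2) for 37 lists outside the cell cycle (y axis), without covariates (black), with genotype (orange), with the muscle fiber and adipocyte means (blue) and within NPE tumors (red crosses). The glycolysis and HIF-1 list stays between 0.42 and 0.65 in all 4, while the fiber and adipocyte medians of -1.11 and -1.41 come close to 0 by construction where those means are covariates.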

How the data were processed

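Gene expression was measured on 21 Clariom S Mouse arrays, 1 per tumor. The authors deposited log2 values made by RMA (Affymetrix Expression Console 1.1, per the labels), in 1 table. Of 28846 probe sets, 94 controls and 6546 with the prefix MG- were left out, and 22206 were tested. Of these 19572 had 1 gene symbol, 0 had several and 2634 had none; genes with several probe sets (19505 genes in all) used the probe set with the highest mean. Differences were fitted with limma 3.58.1 in R 4.3.3 (lmFit and eBayes, two-sided, no covariate, Benjamini-Hochberg over 22206 probe sets), over the 14 tumors of both sides. No set test was run, and each list is described by its calls and median. The score and the cell cycle genes are described with no test. The number of arrays limits the precision. The p-values set the difference of the side means against the spread between tumors within the sides, and whether any tumors shared an animal is not given.

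The tumors compared, the gene lists (50 lists, 1154 of 1268 written genes measured) and the tests were chosen with earlier results of these data known. Named genes were the 15 with the largest difference among those called in each direction and the 10 with the smallest p, up to 4 of each list, the ranking genes and 6 preset genes. Other genes are marked as chosen after their values were seen. Sequences are from RefSeq (GRCm38.p6), in which each of the 4 ranking genes matched 1 window. The labels and the methods name different labeling kits. Alternatives included covariates, other group sizes, other scores, array weights, a filter, renormalization and leaving out each tumor.

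Tumor numbers run through both genotypes, but tumors of the same number did not deviate together (r from -0.31 to 0.13 over 7 numbers), so no pairing was used.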

Additional observations from a re-analysis of the deposited data

Results flagged for a closer look

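On each side, the highest or lowest tumor was compared with the other 6 by Dixon's rule for the score, its genes, the called genes named and the list means. Of 214 such groups 12 held a tumor far from the others, and chance alone marks about 1 group in 20. The flags are near that share and are listed as a description. Because the score and its genes chose the sides, and the called genes were picked by their calls, a flag in them is no test.

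NPE tumor 3, on the high side, accounted for 5 of them. Its E2f8 value was 5.58 against 6.79 to 7.56 in the other 6 tumors, and its mean of the myogenic regulators was 6.31 against 8.59 to 9.14. Its means were higher than in the others for fibroblast genes (8.14 against 6.63 to 7.17), smooth muscle and pericyte genes (8.89 against 7.51 to 7.92) and neutrophil genes (6.95 against 4.03 to 5.21). On the same side, PE tumor 7 had a mean of IGF, receptor kinase and mTOR genes of 8.17 against 7.90 to 8.01, and PE tumor 5 a mean of circadian and glucocorticoid response genes of 6.85 against 7.11 to 7.29.

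On the low side, PE tumor 1 had a Hilpda value of 6.67 against 5.46 to 5.98 in the 6 NPE tumors. NPE tumor 1 had a Fbxo40 value of 8.83 against 6.36 to 7.31 and a mean of polycomb and chromatin regulators of 6.86 against 7.11 to 7.24. NPE tumor 4 had a Nup37 value of 7.41 against 6.42 to 6.76, and NPE tumor 2 a mean of interferon-stimulated genes of 6.19 against 4.98 to 5.42.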

How the results depend on the processing

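The main comparison called 67 genes higher and 45 lower outside the cell cycle lists. No gene was called (0 in either direction) with genotype, number range, both together, or the muscle fiber and adipocyte means as covariates, with the methods' plain test per gene, or, chosen after seeing the data, without NPE tumors 1 and 2 or with the muscle and fat means plus genotype. The numbers higher and lower were 159 and 159 with 21 tumors in 3 groups, 888 and 946 with the continuous score, 25 and 23 with groups of 10 and 11 and 7 within NPE tumors. With the licensing score 103 were higher, with the mitotic score 86 were lower, with the Y-linked mean 23, with the MG- probe sets 23 and with 3 pairs of similar tumors averaged 27. Chosen after seeing the data, the continuous score gave 627 and 625 with genotype, 365 and 388 in NPE and 7 and 5 in PE tumors, and leaving out NPE tumors 1, 2 and 3 gave 3 and 5. Leaving out 1 tumor gave 12 to 128 higher and 10 to 123 lower, with the lowest counts without NPE tumor 2 (12 and 10) and the highest without PE tumor 1 (128 and 123). In every fit of high against low or of the score, all 112 genes kept their direction except in the fit to PE tumors (108). The causes of these changes were not tested.

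The NPE minus PE difference in score was -0.98 with tumor number as a replicate block, -0.88 with number range as a block, and -0.90 to -0.67 with 1 tumor left out. It was -0.43 with the mitotic list and -0.23 with the licensing list. Among genes named but not called, Neu1 turned to -0.071 with genotype and -0.037 with score and genotype, Gli1 to 0.0047 and 0.052, and Ptch1 to 0.013 with score and genotype. Aldoa turned to 0.14 with the muscle and fat means. Mycn turned to -0.15 with number range, -0.33 with the muscle and fat means and -0.14 without NPE tumors 1 and 2, and ran from -0.11 to 0.081 with 1 tumor left out.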
